A study of Mus musculus with 24 samples.

Results

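Late carcinoma was compared with early carcinoma in MMTV-PyMT mice, a transgenic model in which the polyoma virus middle T antigen is driven in mammary epithelium by the long terminal repeat of the mouse mammary tumor virus. The 6 samples were chosen by their labels alone, as the 3 PyMT tumors of week 12 (late carcinoma) and the 3 PyMT tumors of week 10 (early carcinoma), out of 24 samples of the whole series. All 6 came from female mice heterozygous for the transgene on the FVB background, 1 mouse a sample, and no treatment of them is named in the labels or methods. The other 18 samples were PyMT glands of weeks 6 (hyperplasia) and 8 (adenoma or mammary intraepithelial neoplasia) and glands of FVB females without the transgene at weeks 6, 8, 10 and 12, each again with 3 mice. Of these, the FVB glands of weeks 10 and 12 served here to show how normal glands of the same ages differed. Whole tissue was used, so that tumor epithelium, stroma, fat, vessels and blood all added RNA, and for every gene below fewer cells of a type and less RNA per cell cannot be told apart. The transgene itself has no row among the counted genes, so that its level was not analysed here.

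Middle T is a membrane protein with no enzyme activity of its own. It binds SRC family kinases and, once phosphorylated, recruits SHC and the PI3-kinase, so that the MAPK and AKT pathways are switched on without a growth factor. In this model, foci of hyperplasia pass through adenoma to carcinoma within weeks, the borders of the lesions break down and tumor cells spread to the lung. Stages were assigned by the age of the mice. The authors also report that a pathologist saw features typical of the stages in the PyMT samples. By their estimate from stained sections, carcinoma samples were mostly tumor cells, with few stromal and muscle cells. The question put here is which transcripts differed between the tumors of the 2 ages.

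The 6 libraries held 7026040 to 9058740 counts each, and 14918 genes were tested, which reached a CPM (the count scaled to the library total) of 1 in 12 or more of the 24 libraries. Luminal epithelial genes were expressed in all 6 tumors. The 19 tested genes of a luminal epithelium list averaged 9.58 to 9.7 at week 10 and 9.7 to 10.1 at week 12 on the scale of log2(normalized count + 1). In FVB glands they averaged 8.32 to 8.89 at week 10 and 8.61 to 9.68 at week 12, which reached the range of the tumors. Libraries stood apart in 2 respects. In week 10 replicate 2 and week 12 replicate 1, the number of genes peaked at 15 and 12 counts respectively in place of falling from 1 count upward, and these are called packet libraries below. There, 1.26% and 0.316% of 3799 genes of middle abundance had no count at all, against at most 0.0526% in the other 4 tumors. The second respect was week 10 replicate 3, which carried skeletal muscle transcripts and is described with the cell type markers. The p-values measure the spread between 3 mice a group.

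No gene separated the 2 stages after correction. Of 14918 genes, 0 had a higher level at week 12 (0%) and 0 a lower level (0%) at an adjusted p under 0.05 in edgeR's quasi-likelihood test, and the smallest adjusted p was 0.999. At an unadjusted p under 0.05 there were 234 genes with a higher mean at week 12 (1.57%) and 164 with a lower mean (1.1%), 398 in all. DESeq2's Wald test, run on the same counts, called 1 gene, Lao1, with 455 genes at an unadjusted p under 0.05. In 687 genes (4.61%) all 3 tumors of week 12 lay above all 3 of week 10, and in 511 genes (3.43%) they all lay below.

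Tumors of the same stage were about as similar to each other as tumors of different stages were. Across genes, Pearson's r of log2(normalized count + 1) was 0.867 to 0.945 (median 0.892) for the 6 pairs within a week and 0.833 to 0.955 (median 0.887) for the 9 pairs between weeks, genes not being independent replicates. The low values came from the packet libraries, as pairs that held one were at 0.833 to 0.901. Pairs without one were at 0.936 and 0.945 within a week and at 0.937 to 0.955 between weeks. For 8294 genes (55.6%) the 95% interval of the fold change lay within 2-fold in either direction, and among the 9786 genes whose normalized counts averaged 100 or more this held for 8143 (83.2%), where the median interval reached 0.49 to either side on the log2 scale. A change of more than 2-fold between the stages was therefore outside the interval for most genes of fair abundance, while smaller changes were not resolved. Normalized counts are counts divided by the size factor of the library, and every log2 fold change below is week 12 against week 10.

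The genes that lay nearest to the threshold are described as values, since none passed. At the head stood Lao1 (mm9 chr4:118634183-118641517, plus strand), an L-amino acid oxidase secreted into milk. Its normalized counts were 1443, 1596 and 2077 in the week 10 tumors and 879, 686 and 966 in the week 12 tumors. The highest tumor of week 12 lay below the lowest of week 10, with a log2 fold change of -1.02 (SE 0.18, 95% interval -1.42 to -0.62) at an unadjusted p of 0.000137. It was also the only gene called by edgeR's likelihood ratio test and exact test, with adjusted p of 0.0355 and 0.0363 for Lao1, and by DESeq2, with an adjusted p of 0.000871. The PyMT glands had averaged 4308 for Lao1 at week 6 and 1174 at week 8, so that week 10 lay above week 8 and week 12 below it.

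Among genes apart in the higher direction, the smallest unadjusted p belonged to Ifi27l1, an interferon-inducible gene, at 435, 502 and 462 in week 10 and 907, 640.0 and 827 in week 12, a log2 fold change of 0.76 (SE 0.17). Samd9l, an interferon-inducible antiviral factor, had 193, 209 and 269 at week 10 and 493, 505 and 332 at week 12 (log2 fold change 0.98, SE 0.23). Ifi44, also induced by interferon, had 76.5, 72.3 and 79.3 at week 10 and 133, 167 and 251 at week 12 (log2 fold change 1.27, SE 0.34). These 3 of the 10 genes named on this side were thus interferon-inducible. Each was higher in all 3 tumors of week 12 than in any of week 10, as the rule for naming required. Outside them, Klhdc7a had 2304, 2149 and 1972 at week 10 and 3376, 2899.7 and 3232 at week 12 (log2 fold change 0.56, SE 0.13). Arhgap29, a GTPase-activating protein for RHOA, had 631, 519.8 and 682 against 1030.1, 874 and 1146 (log2 fold change 0.73, SE 0.17). Ncald, a neuronal calcium sensor, had 449, 519.8 and 669.6 against 839, 796 and 1555 (log2 fold change 0.96, SE 0.26). In Lbh, a transcriptional cofactor of the Wnt pathway in mammary epithelium, the gap rested on a narrow margin, as the highest tumor of week 10 (97) lay just under the lowest of week 12 (97.2) while the others of week 12 were at 243 and 394.

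The other 3 genes of this group are typical of fat or blood. Nat8l, an N-acetylaspartate synthase of brown fat and neurons, had 15.1, 19.9 and 17.9 at week 10 and 185, 62 and 61 at week 12, a log2 fold change of 2.52 (SE 0.59). Slc36a2, an amino acid transporter of brown fat, had 20.5, 54.5 and 35.8 against 195, 93 and 127 (log2 fold change 1.90, SE 0.47). Both were highest in week 12 replicate 1, the tumor with the highest adipocyte marker level. The beta globin gene Hbb-b2 had 79.2, 37.7 and 78.5 against 156, 238 and 164 (log2 fold change 1.5, SE 0.38).

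On the lower side, Fxr1, an RNA-binding protein related to FMRP, had 1117, 1455 and 1293 at week 10 and 865, 947 and 849 at week 12 (log2 fold change -0.54, SE 0.15). Ywhah, a 14-3-3 adaptor protein, had 737, 1029 and 896 against 608, 581 and 668 (log2 fold change -0.52, SE 0.17). The tetraspanin gene Tspan33 had 110.3, 151 and 139 against 49.3, 53.4 and 68.4 (log2 fold change -1.22, SE 0.36). In these 3 genes, as in Lao1, the tumors of week 12 lay below every tumor of week 10, which the rule for naming required. Ncaph, a condensin subunit that compacts mitotic chromosomes, had 361, 552 and 355 against 214, 248 and 308 (log2 fold change -0.72, SE 0.24). Arhgap42, Pla2g7 (the platelet-activating factor acetylhydrolase) and the adhesion receptor gene Gpr97 had log2 fold changes of -0.57, -0.73 and -1.11. Another, the muscle gene Myom1, owed its mean to a single tumor, with 41.8, 40.9 and 539 at week 10 and 25.7, 40.6 and 32.3 at week 12.

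**Figure D1:**
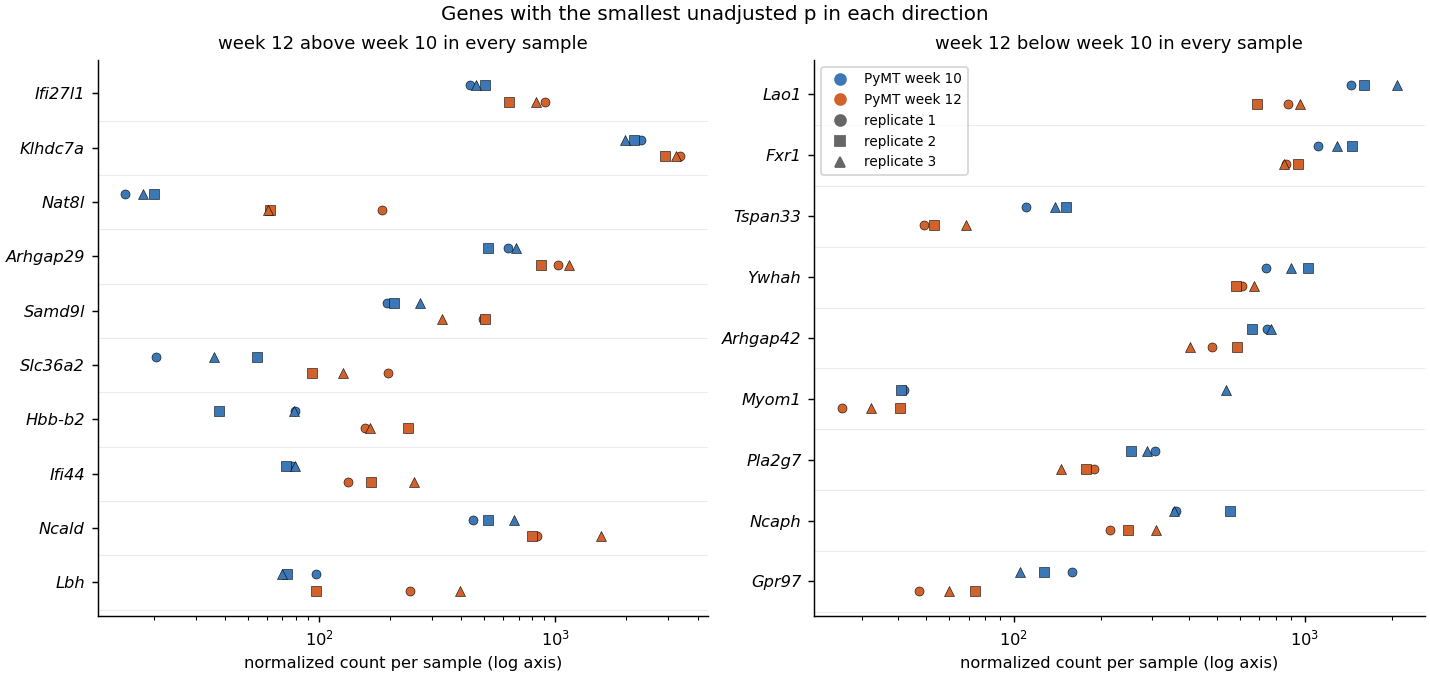
Normalized counts per sample on a log axis for 10 genes with a higher and 9 with a lower mean at week 12, those with the smallest unadjusted p whose groups did not overlap, PyMT week 10 in blue and week 12 in orange, with a marker shape for each replicate. None passed the adjusted threshold (smallest adjusted p 0.999), and Myom1 stands out with 1 tumor of week 10 at 539.

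Interferon-stimulated genes were the list with the largest share of members set apart. Interferons are secreted proteins that signal through JAK kinases to a transcription factor complex that holds IRF9 and that binds the interferon-stimulated response element and switches on antiviral sensors, effectors and the antigen presentation machinery. Of 41 listed genes 40 were tested, and 0 passed at an adjusted p under 0.05. The mean was higher at week 12 in 38 of the 40 and lower in 2, 13 had an unadjusted p under 0.05 in the higher direction (32.5%, against 1.57% of all genes) and 0 in the lower, and in 15 (37.5%, against 4.61%) all tumors of week 12 lay above all of week 10. The median log2 fold change over the list was 0.62, against 0.00 over all genes tested. With 1 tumor left out at a time the median ran from 0.31 (without week 12 replicate 3) to 0.90, and without both packet libraries it was 0.95. The tumor that weighed most was week 12 replicate 3. Without it 31 of the 40 had a higher mean and 3 an unadjusted p under 0.05, whereas without both packet libraries these numbers were 39 and 17.

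Among the sensors of viral RNA, Ifih1 (MDA5) had 425, 538 and 442 at week 10 and 691, 606 and 626 at week 12, a log2 fold change of 0.45 (SE 0.17). Ddx58 (RIG-I) had a log2 fold change of 0.40 (SE 0.16), and again the stages did not overlap. Of the signal transducers, Irf9 had 342, 193 and 475 against 543, 484 and 532 (log2 fold change 0.61, SE 0.28). The differences of these 3 genes were below 2-fold, with every tumor of week 12 above every tumor of week 10. Irf7, the factor that amplifies the interferon response, had 77.4, 82.8 and 153 against 129, 172 and 577, so that the stages overlapped and week 12 replicate 3 stood far above the rest (log2 fold change 1.48, SE 0.52).

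The antiviral effectors had larger fold changes and lower counts. Oasl2 (mm9 chr5:115346943-115362243, plus strand), a 2'-5' oligoadenylate synthetase-like protein, had 86.3, 60.8 and 58 at week 10 and 121, 143 and 245 at week 12 (log2 fold change 1.31, SE 0.38, 95% interval 0.49 to 2.13). Rtp4 had 57.8, 104 and 125 against 167, 232 and 258 (log2 fold change 1.19, SE 0.35). Xaf1, an interferon-inducible promoter of apoptosis, had 24, 52.4 and 35.8 against 68.9, 100.4 and 167 (log2 fold change 1.59, SE 0.50). In all 3 the lowest tumor of week 12 was week 12 replicate 1. Oas1a had a log2 fold change of 1.10 (SE 0.48), Igtp, an interferon-inducible GTPase, of 0.81 (SE 0.32) and its relative Ifi47 of 1.12 (SE 0.51), all without overlap. Other classical members overlapped between the stages, among them Isg15 (24, 0 and 33.3 against 20.6, 41.7 and 97), Ifit1 (24.9, 47.2 and 70.8 against 53.5, 62 and 152) and Mx1 (8.01, 27.2 and 64.8 against 0, 34.2 and 116). The members with a lower mean at week 12 were Ifi204 and Ifi27l2a, with log2 fold changes of -0.31 (SE 0.54) and -0.28 (SE 0.99). Oas1a and Oas1g, the members of the Gbp family and the H2 genes below have near-identical copies, and their counts depend on how reads were divided among these.

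Averaged over the list on the log2 scale, the 3 tumors of week 10 were at 5.87, 5.82 and 6.39 and those of week 12 at 5.94, 6.73 and 7.4. Week 12 replicate 3 was highest and week 12 replicate 1 lay within the range of week 10, so that the list as a whole overlapped between the stages although 15 of its members did not. In the PyMT series as a whole, 37 of the 40 genes had a higher mean in the PyMT glands of week 8 than at week 12, and 39 had a higher mean at week 8 than at week 10. The week 8 means rested largely on 1 gland, since the list averaged 6.01, 8.79 and 5.86 in its 3 replicates, so that 2 of them lay below the middle tumor of week 12 and replicate 2, a packet library, above all 3. At week 6, 7 of the 40 had a higher mean than at week 12. Of the cell type markers, the 5 tested markers of T and NK cells averaged 2.12 to 3.87 at week 10 and 3.01 to 3.91 at week 12, and the 21 of macrophages 7.01 to 7.66 and 7.48 to 8.08, where the highest was week 12 replicate 1 and week 12 replicate 3 was the lowest of its week. The 4 tested markers of B and plasma cells averaged 4.37, 2.84 and 3.88 at week 10 and 3.9, 5.68 and 4.89 at week 12, with week 12 replicate 1 inside the range of week 10 and the other tumors of week 12 above it, as in the interferon list. Skeletal muscle markers, described further on, also had the order of replicates 1, 2 and 3 at week 12 that the interferon list had. The part of these cells in the interferon pattern was not tested.

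**Figure D2:**
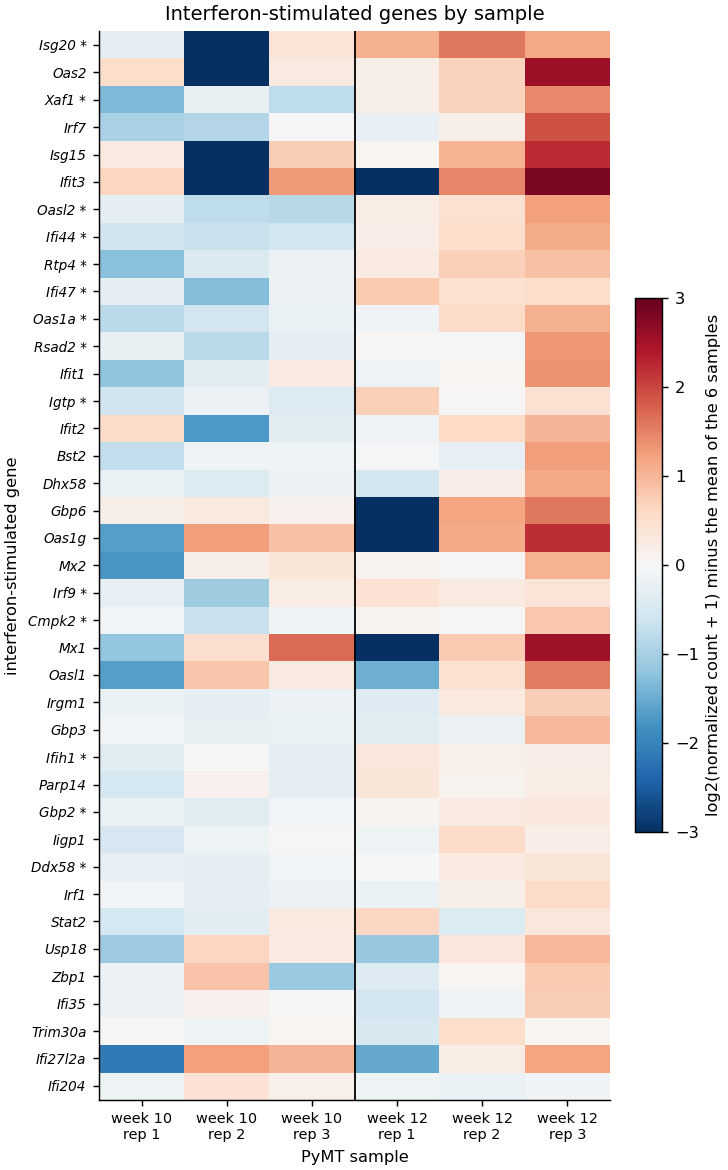
Heat map of 39 interferon-stimulated genes (rows, ordered by log2 fold change, a star marks genes with all week 12 tumors above all week 10 tumors) in the 6 PyMT tumors (columns), coloured by log2(normalized count + 1) minus the mean of the 6 tumors, with colours ending at 3 to either side. Week 12 replicate 3 is the reddest column, week 12 replicate 1 is mixed, and 14 genes carry a star.

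The upstream sequence of these genes was read for the core of the response element, because its presence is a property that does not come from the counts. RefSeq promoters (build GRCm38.p6) were available for 27 of the 40 genes, and the letters GAAANNGAAA, or TTTCNNTTTC for the opposite strand, were searched in the 250 bases before the start. They occurred in 13 of the 27 (48.1%), against 327 of 10742 tested genes with a promoter (3.04%). The list was made of genes known to respond to interferon, so that this excess describes the choice of genes and not the stages. Among members whose stages did not overlap, 4 of 13 (30.8%) held the letters, and among the other members 9 of 14 (64.3%). The following stretches, 5′ to 3′ on the strand of the gene with the letters in capitals (overlapping matches run together), belong to the 4 members that held them and whose stages did not overlap: Igtp at chr11:58199492-58199555 (plus strand), Oas1a at chr5:120907526-120907575 (minus strand), Gbp2 at chr3:142620574-142620643 (plus strand) and Rsad2 at chr12:26456533-26456602 (minus strand).
Igtp: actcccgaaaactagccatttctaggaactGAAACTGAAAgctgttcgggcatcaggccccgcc
Oas1a: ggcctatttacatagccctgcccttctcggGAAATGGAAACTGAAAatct
Gbp2: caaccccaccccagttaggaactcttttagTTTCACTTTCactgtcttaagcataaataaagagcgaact
Rsad2: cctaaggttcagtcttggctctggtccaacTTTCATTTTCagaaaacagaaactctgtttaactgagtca

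A match describes the letters of this window and does not show that a factor bound there, nor does the lack of a match show the opposite. In Igtp the match lay 34 bases before the start and in Gbp2 59 bases before it. Gbp2, a guanylate-binding protein, had 209, 187 and 228 at week 10 and 253, 289.5 and 298 at week 12, and Rsad2 (viperin) had 33.8, 22 and 32.4 against 40.1, 38.5 and 98.9. Neither reached an unadjusted p under 0.05, although both were higher in every tumor of week 12.

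Genes of antigen presentation, many of which interferon also induces, had a higher mean at week 12 in 18 of 19 tested members, and the list's median was 0.28 on the log2 scale. Without week 12 replicate 3, the tumor that also weighed most in the interferon-stimulated list, 12 of the 19 had a higher mean and the median was 0.0954. With all 6 tumors, 2 of the 19 had an unadjusted p under 0.05 in the higher direction (10.5%, against 1.57% of all genes) and 3 did not overlap (15.8%, against 4.61%). B2m, the light chain of MHC class I, had 1040.1, 808 and 1001 at week 10 and 1334, 1105 and 1406 at week 12 (log2 fold change 0.43, SE 0.16). Tap2, a subunit of the peptide transporter, had 441, 388 and 479 against 517, 539.6 and 739 (log2 fold change 0.45, SE 0.20). Nlrc5, the transactivator of class I genes, had 69.4, 72.3 and 79.3 against 99.7, 122 and 141 (log2 fold change 0.71, SE 0.35). The class I heavy chain genes H2-K1 and H2-D1 had log2 fold changes of 0.37 and 0.28, and both overlapped. Of 19 chemokine and cytokine genes, 14 had a higher mean at week 12, with a median of 0.28, which was 0.20 without week 12 replicate 1. In the higher direction 2 were apart (10.5%, against 4.61%) and 2 had an unadjusted p under 0.05 (10.5%, against 1.57%), with 0 of either in the lower. Both named members were highest in week 12 replicate 1, where the chemokine Ccl8 reached 530.5 against 185 and 123 in the other tumors of week 12 and 134, 171 and 69.1 at week 10, and Cxcl14 reached 337 against 235 and 141, and 117, 172 and 121 at week 10.

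Proliferation genes did not mark the later stage. Mki67, the proliferation antigen, had 4035, 4321 and 3377 at week 10 and 3779, 3144 and 4739.8 at week 12, a log2 fold change of -0.01 (SE 0.17, 95% interval -0.37 to 0.35). Top2a, the topoisomerase of replicating chromosomes, had 2344, 2954 and 1771 against 2313, 1818 and 2568 (log2 fold change -0.08, 95% interval -0.49 to 0.34). The maintenance methyltransferase gene Dnmt1 had 3041, 2636 and 2332 against 2697, 2676 and 2745 (log2 fold change 0.02, 95% interval -0.28 to 0.32). For these 3 genes the stages overlapped fully, and the interval left no room for a 1.5-fold change in either direction. Of 32 mitosis genes, 28 had a lower mean at week 12 and 4 a higher one, the median being -0.11 on the log2 scale, and the interval lay within 2-fold for 28 of the 32. The split was not stable, as 15 of the 32 had a higher mean without week 10 replicate 1 and also without week 12 replicate 2, and the median ran from -0.275 to -0.00562 with 1 tumor left out. The lowest p values belonged to Cdk1, the kinase of mitotic entry, at 601, 866 and 391 against 408, 359 and 476 (log2 fold change -0.58, 95% interval -1.13 to -0.02), and to Bub1b, a spindle checkpoint kinase, at 771, 825 and 440.1 against 533, 360.1 and 513 (log2 fold change -0.54). Plk1, the polo-like kinase, had 324, 371 and 249 against 211, 132 and 271 (log2 fold change -0.62, 95% interval -1.24 to 0.00). In each the week 10 tumors were spread widely, with replicate 2 highest and replicate 3 lowest, and the stages overlapped.

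Of the other genes that the study names, Ccnb2, Aurkb, Spag5, Hmgb3, Cit and Hells had log2 fold changes of -0.06, -0.11, 0.16, -0.10, -0.08 and -0.31 with SEs of 0.34, 0.26, 0.36, 0.24, 0.25 and 0.21. The stages overlapped in all 6. Among 33 DNA replication genes, 21 had a lower and 12 a higher mean, with a median of -0.09, and the smallest p values belonged to Tk1, thymidine kinase (log2 fold change 0.46, SE 0.26), and to the helicase subunit Mcm3 (-0.38, SE 0.25). Replication-dependent histone genes had a lower mean at week 12 in 47 of 57, with a median of -0.16, which was -0.41 without week 12 replicate 3 and 0.01 without week 12 replicate 2. The week 12 tumors had lower means than earlier lesions in most of these genes, since 31 of 32 mitosis genes had a higher mean at week 8 and 30 at week 6. Cdkn1a (p21) had 25.8, 0 and 53.7 at week 10 and 42.2, 144 and 105 at week 12, and the 21 genes of the p53 axis had a median of 0.05.

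**Figure D3:**
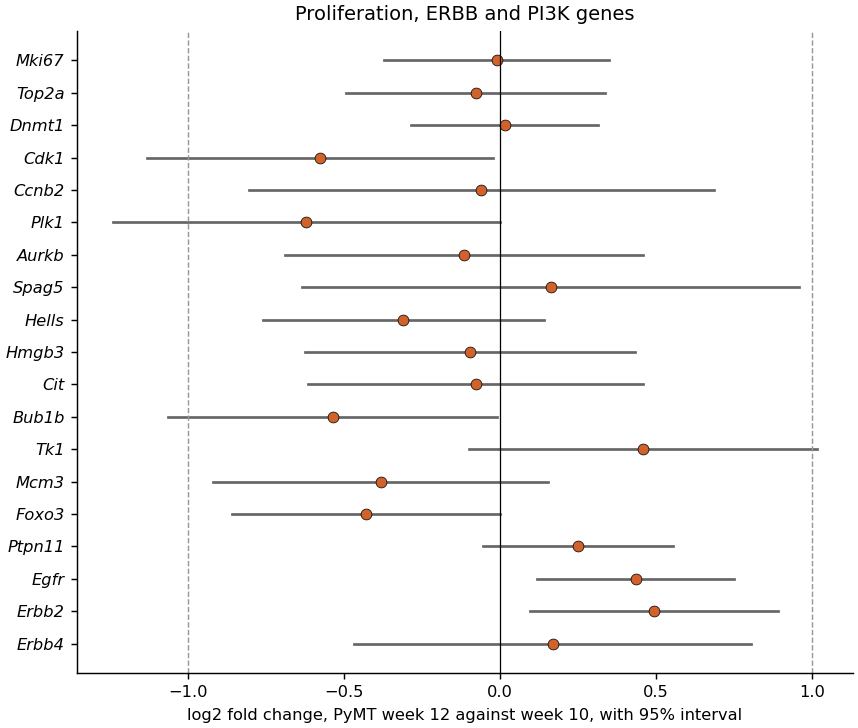
Log2 fold change of PyMT week 12 against week 10 (points) with its 95% interval (lines) for named proliferation genes, 2 genes of the PI3K pathway and 3 ERBB receptors, dashed lines marking a 2-fold change. Mki67, Top2a and Dnmt1 lie near 0 with intervals inside the dashed lines, and Egfr and Erbb2 have intervals above 0.

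Genes of the pathway that middle T activates had a median near 0. Of 30 genes of middle T effectors and the PI3K and AKT pathway, 16 had a higher and 14 a lower mean at week 12, the median log2 fold change was 0.02, and for 29 of the 30 the 95% interval lay within 2-fold. Foxo3, a forkhead factor that AKT keeps out of the nucleus, had 1685, 2769.7 and 2834 at week 10 and 1729, 1623 and 2070.0 at week 12 (log2 fold change -0.43, SE 0.20), and Ptpn11, the phosphatase SHP2, 1154, 1022 and 1122 against 1423, 1233 and 1284 (log2 fold change 0.25, SE 0.14). These are transcript levels, and phosphorylation was not measured here.

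Of the ERBB receptors, Egfr and Erbb2 had higher means at week 12 and Erbb3 did not. Egfr (mm9 chr11:16652206-16818161, plus strand) had 1182, 1514 and 1340.0 at week 10 and 1704, 1809.9 and 1953 at week 12, a log2 fold change of 0.43 (SE 0.14, 95% interval 0.12 to 0.75). Erbb2 had 499, 496 and 554 against 711, 594 and 882 (log2 fold change 0.49, SE 0.18). In both, all tumors of week 12 lay above all of week 10. Erbb3 had 2052, 2158 and 2456 against 2186, 2308 and 2018 (log2 fold change -0.04, SE 0.14) and Erbb4 182, 332 and 366 against 403, 357 and 234 (log2 fold change 0.17, SE 0.29). Errfi1, a feedback inhibitor of EGFR, had 1730.5, 2404 and 2015 against 1273, 1519 and 1728, lower in every tumor of week 12 (log2 fold change -0.44, SE 0.17). Over the 14 tested genes of the list, 8 had a higher mean and the median was 0.11. In the higher direction 2 members were apart (14.3%, against 4.61% of all genes) and in the lower 1 (7.14%, against 3.43%). The ligand gene Areg (amphiregulin), chosen after its values were seen, was at 1.78, 97.5 and 5.12 against 15.4, 24.6 and 8.32.

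Milk genes had lower means at week 12 but wide spreads. Late pregnancy and lactation are when these genes are normally used, and PyMT tumors keep expressing a part of them. Of 17 tested genes, 16 had a lower mean at week 12, and the list's median of -0.20 stayed between -0.47 and -0.16 with 1 tumor left out, and 2 were apart in the lower direction (11.8%, against 3.43%), Lao1 and Elf5. Wap, whey acidic protein, had 939.5, 514 and 1441 at week 10 and 206, 313 and 716 at week 12 (log2 fold change -1.23, SE 0.43, unadjusted p 0.0151). Csn2, beta casein, had 3753, 966 and 6450.2 against 1786, 313 and 2554 (log2 fold change -1.28, SE 0.66). In both genes the stages overlapped, and Csn2 was lowest in replicate 2 of either week. Csn3, kappa casein and the most abundant of them, had 28873, 38316 and 37074 against 29764, 33560.0 and 39221 (log2 fold change -0.03, 95% interval -0.33 to 0.28), and Lalba, alpha-lactalbumin, had a log2 fold change of -0.07 (95% interval -0.56 to 0.42). Elf5, the transcription factor of the secretory lineage, had 3540.2, 3472 and 4819 against 3445, 3272 and 2963, which did not overlap by a small margin (log2 fold change -0.30, SE 0.16). Other secretory products also had lower means, as Saa2, serum amyloid A, had 707, 602 and 1158 against 288, 344 and 611 (log2 fold change -0.99, SE 0.31) and Pigr, the transporter of polymeric immunoglobulin into milk, 1046, 750.3 and 887 against 706, 641 and 553 (log2 fold change -0.51, SE 0.17). The 20 genes of that acute-phase and secretory list were evenly divided, 10 in each direction.

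Of the lineage genes of the epithelium, luminal genes had the largest share of members apart. Of 19 luminal genes, 13 had a higher mean, with a median of 0.09, which was -0.06 without week 12 replicate 3. In the higher direction 2 were apart (10.5%, against 4.61% of all genes) and 0 in the lower. Of 16 genes of hormone receptors and their targets 1 was apart in the higher direction (6.25%), and of 19 basal genes 0. Itgb3, an integrin found on luminal progenitors, had 1036, 733 and 1213 at week 10 and 1484, 1613 and 1561 at week 12 (log2 fold change 0.64, SE 0.19), and Aldh1a3, a retinaldehyde dehydrogenase of luminal progenitors, overlapped (log2 fold change 0.89, SE 0.42). Among hormone receptors and their targets, Esr1, the estrogen receptor gene, had 221, 209.6 and 212 against 264, 373 and 179. Igf1 had 401, 262 and 302 against 628, 679.5 and 201. The list median was 0.16, and it changed sign without week 10 replicate 1 (-0.08). Basal genes had a higher mean in 15 of 19 with a median of 0.29, and the leading members came from 1 tumor. Krt14, keratin of basal cells, had 558, 694 and 381 against 424, 2878 and 288, and Dsc3, a desmosomal cadherin, 21.4, 9.43 and 15.4 against 26.7, 171 and 8.32, so that week 12 replicate 2 was high in both and the other tumors of week 12 were not.

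Genes of glycolysis and of the response to low oxygen gave 5 members of 38 apart in the higher direction (13.2%, against 4.61% of all genes) and 0 in the lower. The transcription factor HIF1 is regulated at the protein level and drives carbonic anhydrases, glucose uptake and angiogenic factors. Car12, a carbonic anhydrase of the cell surface, had 1976, 1741 and 2634 at week 10 and 2971, 2966 and 3584 at week 12 (log2 fold change 0.58, SE 0.17). Car9, its tumor-associated relative, had 51.6, 18.9 and 19.6 against 117, 55.6 and 114 (log2 fold change 1.65, SE 0.57). Hk2, hexokinase, had 321, 290.3 and 429.9 against 614, 466 and 499 (log2 fold change 0.59, SE 0.21). Pfkp and Adm (adrenomedullin) were the other 2 members apart, with log2 fold changes of 0.42 and 2.46. Vegfa had 345, 219 and 331 against 683, 272 and 742, low in week 12 replicate 2. In all, 6 of 38 members had an unadjusted p under 0.05 in the higher direction (15.8%, against 1.57%) and 0 in the lower, with a median of 0.18. The glycolytic enzyme genes Pgk1, Tpi1, Eno1 and Hk1, chosen after their values were seen, had log2 fold changes between -0.03 and -0.01, and Hif1a itself of -0.06 (SE 0.16). Without week 12 replicate 3 the list median was -0.02. Glycolytic genes such as Gapdh and Pgk1 have many processed copies, so that their counts are uncertain.

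Notch and Wnt genes had 6 members of 44 apart in the higher direction (13.6%, against 4.61%) and 0 in the lower, and a median of 0.07. Hey1, a transcriptional target of Notch, had 740.2, 664 and 1099 at week 10 and 1258, 1247 and 1546 at week 12 (log2 fold change 0.69, SE 0.20). Dll1, a Notch ligand, had 127, 436 and 306 against 662, 396 and 675 and overlapped (log2 fold change 1.00, SE 0.36). The other members apart, named here because they are so few, were Notch1, Notch3, Nrarp, Dll4 and Dkk2. The receptor gene Notch1 had 3323, 2773 and 3394 against 4158, 3905 and 3859 (log2 fold change 0.32, SE 0.13), and the feedback regulator Nrarp had 56.1, 48.2 and 29.9 against 112, 94 and 58.2 (log2 fold change 0.97, SE 0.48). Dll4 is a Notch ligand and Dkk2 an inhibitor of Wnt signalling. Fatty acid and cholesterol synthesis gave Me1, malic enzyme, at 683, 555 and 896 against 1051, 1077 and 1045 (log2 fold change 0.56, SE 0.19) and Fasn, fatty acid synthase, at 7729.9, 9210.5 and 10237 against 21432, 7794 and 19944 (log2 fold change 0.85, SE 0.29), with a list median of 0.10 over 29 genes. Fasn was high in the tumors of week 12 in which Ucp1 was also high and low in the other.

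The unfolded protein and amino acid response had a lower mean in 21 of 32 genes, a median of -0.12 and 4 members apart in the lower direction (12.5%, against 3.43%). In the higher direction 1 member was apart (3.12%, against 4.61%). The list averaged 9.17, 9.24 and 9.18 at week 10 and 9.08, 8.95 and 9.48 at week 12 on the log2 scale, so that week 12 replicate 3 was the highest of the 6 tumors. Slc7a5, the large neutral amino acid transporter, had 1729.6, 1217 and 1186 at week 10 and 795, 746 and 1161 at week 12 (log2 fold change -0.62, SE 0.21). Hspa5, the chaperone BiP of the endoplasmic reticulum, had 6409.5, 7556 and 7097 against 6069, 5341 and 5981 (log2 fold change -0.28, SE 0.12). Psat1, an enzyme of serine synthesis, had 1454, 1208 and 1351 against 932, 1029 and 1199 (log2 fold change -0.35, SE 0.16), and Xbp1, a transcription factor of the unfolded protein response, had a log2 fold change of -0.21 (SE 0.12). These 4 were the members apart in the lower direction, and none had a 2-fold difference of means. Cytosolic ribosomal protein genes had a lower mean in 53 of 79 with a median of -0.07, with Rps20, which overlapped, at -0.36. In the lower direction 7 of them were apart (8.86%, against 3.43%) and in the higher 1 (1.27%, against 4.61%). Respiratory chain genes had a median of 0.02 over 86 genes, with Ndufv3 at 0.69 and Atp5h at 0.35. Of the 86, 4 were apart in the lower direction (4.65%, against 3.43%) and 2 in the higher (2.33%, against 4.61%). The 9 genes of the mitochondrial genome had a median of 0.06, with mt-Cytb at 0.20, and mt-Co2 was close to its floor at 3.56, 0 and 9.38 against 23.6, 8.55 and 16.6.

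Most genes of matrix and invasion overlapped between the stages. Of the matrix genes 1 was apart in either direction (2.44% each, against 4.61% higher and 3.43% lower of all genes). Of the proteases and inhibitors 0 were apart in the higher direction and 1 in the lower (3.23%). Among 41 matrix genes, 36 had a higher mean at week 12 and the median was 0.18, but without week 12 replicate 1 the median was -0.03. Col3a1, a fibrillar collagen, had 12452, 12684 and 11737 at week 10 and 20842, 15927 and 11852 at week 12, highest in week 12 replicate 1, and Col5a3 had a log2 fold change of 0.59 (SE 0.28). Matrix proteases and their inhibitors had a median of -0.01 over 31 genes, in which Adamts4, an aggrecanase, had 42.7, 47.2 and 31.6 against 142, 45.9 and 80.4. Genes of the epithelial-mesenchymal transition had a median of 0.10 over 26 genes. Of the 26, 3 were apart in the higher direction (11.5%, against 4.61%) and 0 in the lower. Itgav, the alpha v integrin, had 2343, 2474 and 2686 against 3359, 3168 and 2800.1 (log2 fold change 0.31, SE 0.13), and the transcription factor gene Snai1 had 8.01, 0 and 4.26 against 53.5, 17.1 and 12.9, few counts in any tumor.

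Immediate early genes had a median of 0.05 over 28, with Ier3 at 489, 285 and 267 against 461, 558 and 499.9 and Nr4a1 at 231, 236 and 261 against 299, 251 and 558. Among 18 clock genes 14 had a lower mean and the median was -0.07, which became 0.14 without week 10 replicate 3. The hour of collection, on which the levels of clock genes depend, is not given in the sources used here. Arntl (BMAL1), the activator of the clock, had 169, 32.5 and 93 at week 10 and 184, 205 and 323 at week 12 (log2 fold change 1.26, SE 0.49), whereas Per3, a repressor, had 416, 704 and 744 against 389.6, 454 and 376 (log2 fold change -0.61, SE 0.23). The FVB glands of the same weeks had a log2 fold change of 2.26 (SE 0.49) for Arntl and of -0.47 (SE 0.21) for Per3. Both genotypes thus had the same signs in these 2 genes.

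**Figure D4:**
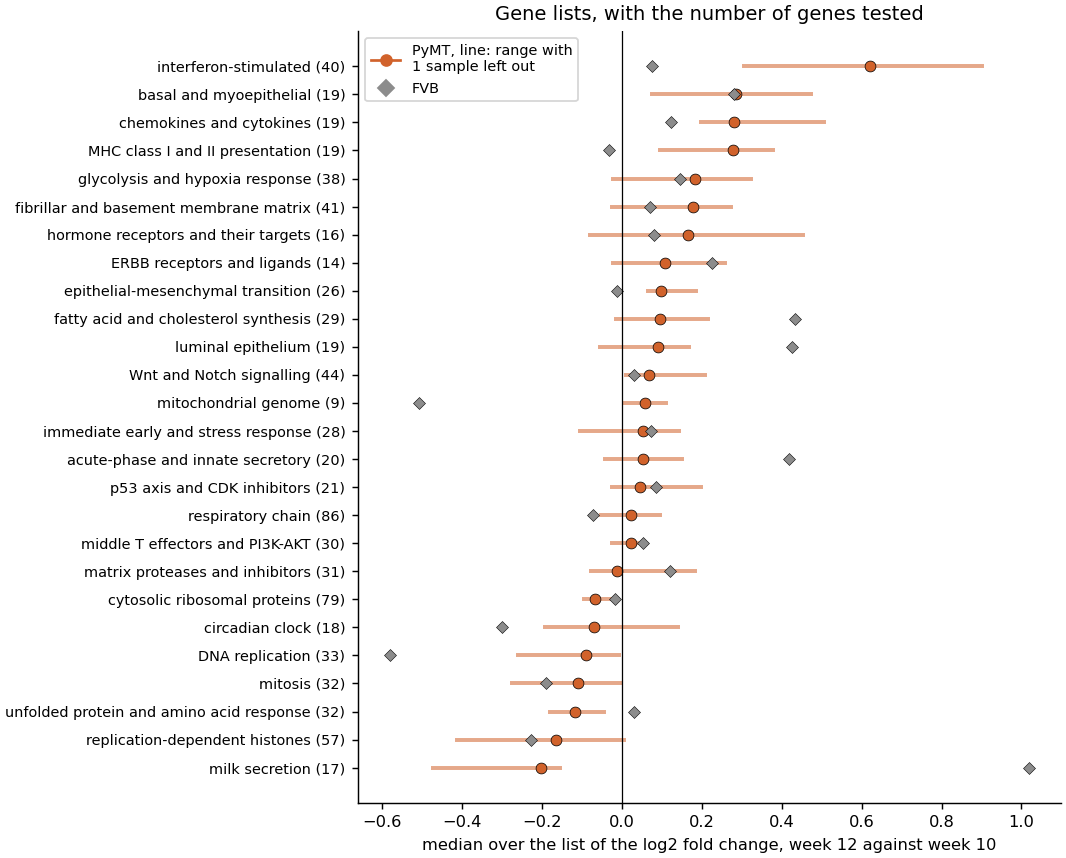
Median log2 fold change of each gene list (number of genes tested in brackets) in PyMT tumors (orange points), with a line from the lowest to the highest median when 1 tumor was left out, and in FVB glands (grey diamonds). The interferon-stimulated list lies farthest to the right in PyMT at 0.62 while FVB is at 0.07, and the milk list is lowest in PyMT at -0.20 while FVB is at 1.02.

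Markers of other cell types showed which tumors carried more of other tissue. The 14 skeletal muscle markers tested averaged 4.25, 0 and 10.7 at week 10 and 3.36, 3.99 and 5.87 at week 12, so that week 10 replicate 3 held muscle RNA, with Tnnt3, a troponin of fast muscle, at 1722 in it against 0 to 38.8 in the other tumors and Myl1 at 656 against 0 to 18.7. All 14 had a lower mean at week 12, with a median of -4.22, which became 1.88 without that tumor. Des, desmin, followed them at 882 against 18.7 to 63. Adipocyte markers had a higher mean at week 12 in 17 of 20 with a median of 0.39, and 0.07 without week 12 replicate 1. Their average was 7.8 to 8.99 at week 10 and 8.31 to 9.34 at week 12, well below the 12.5 to 13.1 of the FVB glands of both weeks. Cfd, adipsin, had 874, 1660.0 and 800.1 against 2482, 1824 and 1176, and Cidea, a lipid droplet protein of brown fat, 19.6, 78.6 and 58 against 577, 0 and 266. Ucp1, the uncoupling protein of brown fat, which was chosen after its values were seen, had 4.45, 14.7 and 67.4 against 1317, 3.21 and 377, and Elovl3, chosen likewise, was listed at 0 in all week 10 tumors and at 58.6, 0 and 27.7 at week 12. These 3 genes were thus high in 2 of the 3 tumors of week 12 and at or near 0 in week 12 replicate 2, whereas Nat8l and Slc36a2, described above, were also higher in that tumor (62 and 93) than in any tumor of week 10.

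The average of the erythrocyte markers was higher in every tumor of week 12, at 6.37 to 7.32 at week 10 and 7.72 to 8.42 at week 12. All 4 tested genes had a higher mean, and Hba-a1, alpha globin, had 286, 303 and 415 against 383, 679.5 and 578, which overlapped. The globin genes have near-identical copies. Igkc, the immunoglobulin kappa constant region that plasma cells make, had 16.9, 1.05 and 9.38 at week 10 and 49.3, 125 and 33.3 at week 12 (log2 fold change 2.89, SE 0.93). In FVB glands it had 129, 93.2 and 31.3 at week 10 and 564, 484 and 805 at week 12 (log2 fold change 2.83, SE 0.50), so that it had a higher mean at the later age with and without tumors. The defining B cell markers were mostly too low to test, 4 of the list being tested, and Igj, the joining chain, was at 10.7, 0 and 2.56 against 0, 80.1 and 19.4.

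The remaining marker lists had medians between -0.01 and 0.47. Fibroblast markers averaged 8.72 to 9.14 at week 10 and 8.21 to 9.18 at week 12, with Lum, lumican, at a log2 fold change of 0.40 (SE 0.26). Endothelial markers averaged 6.32 to 6.86 and 6.54 to 7.01, with Cdh5 at 0.45 (SE 0.27) and Prox1, a lymphatic factor, at -0.56 (SE 0.37). Pericyte and smooth muscle markers averaged 6.79 to 7.75 and 7.29 to 7.97, with Myh11 at 0.64 (SE 0.40). In macrophage markers Cd163 was at 57.8, 66 and 126 against 425, 99.4 and 83.2, again highest in week 12 replicate 1, and Csf1r had a log2 fold change of 0.38 (SE 0.21). Neutrophil markers averaged 5.97 to 6.03 and 5.8 to 6.92, with Itgam at 0.49 (SE 0.35) and Il1r2 at no more than 41.1 in any tumor. For T and NK cells (Lck at 0.56, SE 0.85, and Ncr1 at no more than 8.55) and dendritic cells (Zbtb46 at 0.40, SE 0.37, and Flt3 at no more than 21), counts were few and the stages overlapped. Nerve markers averaged 6.76 to 7.25 at week 10 and 6.74 to 7 at week 12. The part that these tissues had in the gene lists above was not tested.

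**Figure D5:**
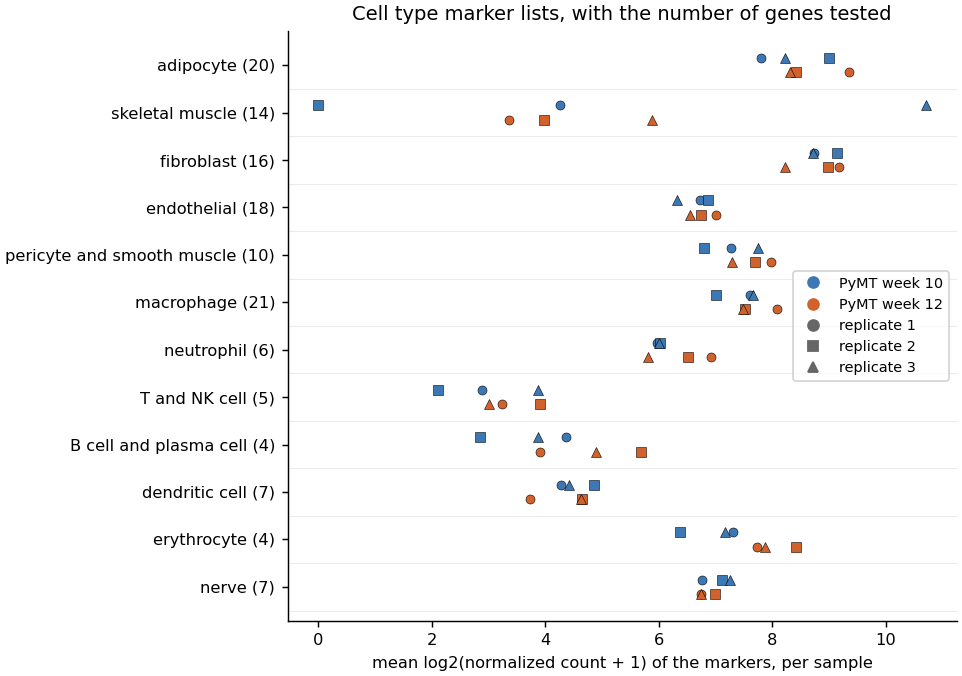
Mean log2(normalized count + 1) of each cell type marker list (number of genes tested in brackets) in the 3 PyMT tumors of week 10 (blue) and of week 12 (orange), with a marker shape for each replicate. Week 10 replicate 3 stands out for skeletal muscle at 10.7, and the erythrocyte list is the one in which all week 12 tumors lie above all week 10 tumors.

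FVB glands of weeks 10 and 12 were compared in the same way, to show what the same ages did in the absence of a tumor. Again 0 genes passed in edgeR's quasi-likelihood test, and 378 had an unadjusted p under 0.05 (2.53%). The median size of the log2 fold change was 0.27 in FVB and 0.21 in PyMT, and the median SE 0.42 and 0.30, so that both were larger in normal glands. DESeq2 called 9 genes in FVB. In simulated FVB counts, edgeR's quasi-likelihood test recovered 0 of 100 2-fold changes and DESeq2 14, while 3 and 51 unchanged genes were called. All 3 FVB libraries of week 10 and 1 of week 12 were packet libraries. With counts divided by the packet size, 0 genes passed in FVB (460 at an unadjusted p under 0.05) and 0 for the difference described next (493). The difference between the PyMT and the FVB change was tested in a fit of the 12 samples, in which 0 genes passed (smallest adjusted p 0.686 in edgeR's quasi-likelihood test) and 411 had an unadjusted p under 0.05 (2.76%), while DESeq2 called 9. The 9 that DESeq2 called were Expi, Gnrh1, Calr3, Trip13, Acox2, Nhej1, Pkhd1l1, Bhlha15 and Ceacam20, so that a difference between the genotypes was called by DESeq2 and not by edgeR's quasi-likelihood test. In PyMT the stages overlapped in all 9, and all but Expi had a normalized count of about 2 or less in each FVB gland of week 10.

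The 5 genes with the smallest p for that difference included 4 with almost no counts in the FVB glands of week 10, and 3 of the 5 (Bhlha15, Trip13 and Acox2) were among those that DESeq2 called. Bhlha15 (MIST1), a factor of secretory cells, had 585, 675 and 882 at week 10 and 726, 592 and 801 at week 12 in PyMT, and 0, 2 and 1.56 against 12.1, 30.2 and 19.7 in FVB. Trip13, Adra2c and Acox2 were listed at 0 in all FVB glands of week 10, and had 10.8, 17.6 and 24.1, 18.8, 27.7 and 13.1, and 16.1, 21.4 and 13.1 at week 12. In PyMT, Trip13, a checkpoint ATPase, had 141, 103 and 83.6 against 57.6, 81.2 and 94.3, Adra2c, an adrenergic receptor, 62.3, 93.3 and 54.6 against 135, 193 and 152, and Acox2, a peroxisomal oxidase, 333, 307 and 196 against 29.8, 252 and 231. The fifth, A530053G22Rik, was listed at 0 in all PyMT tumors of week 10 and at 13.4, 4.27 and 9.24 at week 12.

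The interferon-stimulated and milk lists had different medians in the 2 genotypes. The interferon-stimulated list had a median log2 fold change of 0.07 in FVB, and 31 of its 40 genes had a larger change in PyMT than in FVB. For Oasl2, which had 168, 219 and 250.4 at week 10 and 118, 106 and 136 at week 12 in FVB glands, the difference of the changes was 2.14 on the log2 scale (SE 0.51, unadjusted p 0.00117, adjusted p 1.0 in edgeR's quasi-likelihood test). Milk genes had a median of 1.02 in FVB, and 15 of 17 had a higher mean at week 12 there. Csn2 had 34.5, 82.2 and 199 at week 10 and 1418, 21.4 and 1413 at week 12 in FVB, and the difference of the changes was -4.49 (SE 1.61, unadjusted p 0.0157). In FVB week 12 replicate 2 was low in Csn2 while the other glands of that week were high.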

How the data were processed

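RNA from snap-frozen mammary tumors or glands was depleted of ribosomal RNA and sequenced as directional libraries. The authors trimmed adapters, used GSNAP for alignment to mm9 and HTSeq for counting, and deposited a table of unnormalized raw counts for 37991 Ensembl genes. The strand setting of the counter is not given in the sources used here. GENCODE M1 (mm9) gave symbols and coordinates for 37205 genes. Groups came from the genotype and week in the labels.

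The 14918 genes at 1 CPM or more in 12 or more libraries were tested in R 4.3.3 with edgeR 4.0.16 (TMM, quasi-likelihood test, Benjamini-Hochberg adjustment), on the 6 PyMT samples, the 6 FVB samples, or all 12 for the difference of the changes. SE is the log2 fold change over the square root of F. Normalized counts used DESeq2 1.42.0 size factors. Alternatives included DESeq2, limma 3.58.1 voom with quality weights, other scalings, filters, samples and counts divided by the packet size; dropping both packet libraries was added after seeing the data. Fits were tested on simulated counts with 100 genes changed 2-fold and 100 changed 4-fold. In PyMT, edgeR's quasi-likelihood test recovered 31 and 79 of these, in FVB 0 and 28, and for the difference 1 and 27. It called 13, 3 and 0 unchanged genes. DESeq2 recovered 37 and 83, 14 and 58, and 10 and 56, and called 47, 51 and 46 unchanged genes. A count of 0 genes passing therefore does not show that no gene differed. Sequences are from RefSeq.

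The samples, gene lists and tests were chosen with earlier results of these data known. Named were, per direction, the 10 genes with the smallest p among those with a mean of at least 50 and no overlap (none passed), the 2 smallest p values of each list, the 5 of the difference test, and 12 genes that the study names; other genes were chosen after their values were seen. Replicate numbers were not treated as pairs in the main fit. Some named genes are not reported here.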

Additional observations from a re-analysis of the deposited data

How the results depend on the processing

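The count of genes that passed in the PyMT comparison, 0, was also 0 with RLE or library-size scaling, a weaker filter, voom with quality weights, counts divided by the packet size, all PyMT or all 24 samples, a test against a 1.2-fold change, without both packet libraries, and with any 1 tumor left out (257 to 558 genes at an unadjusted p under 0.05). It was 1 with DESeq2, 1 with the likelihood ratio test and 1 with the exact test (Lao1 each time), and 114 without a filter on low counts. Of these 114, 91 were also tested in the main fit, among which 14 were skeletal muscle markers and 17 had groups that did not overlap. Correlations of same-numbered tumors' deviations were -0.05, -0.06 and 0.09, against -0.09 to 0.09 for tumors of different numbers. These values gave no sign that the numbers pair the tumors, but with 3 tumors a week they cannot exclude it. With a replicate block 1 gene passed (Csn2). In FVB, and for the difference of the changes, DESeq2 called 9 each. With 1 sample left out, the difference gave 0 to 1 genes, the 1 being Lalba without FVB week 10 replicate 3. List medians with 1 tumor left out ran from -0.0556 to 0.167 for luminal epithelium, -0.0248 to 0.0385 for middle T effectors, -0.0215 to 0.322 for glycolysis and hypoxia and -0.0781 to 0.182 for matrix proteases. The luminal median was 0.25 without both packet libraries, and the chemokine median 0.65 with voom. Of 107 named genes, 16 changed sign somewhere (33 of 2132 values). Of these values of opposite sign, 8 differed from the main fit by at least 1 SE or passed the adjusted threshold in that alternative. Another 25 values kept their sign and passed the adjusted threshold in an alternative. Without both packet libraries Cd163 was at -0.0211 and Aurkb at 0.15, and with voom Cidea at -0.59. With 1 tumor left out, Krt14 ran from -0.62 (without week 12 replicate 2) to 1.6, Tnnt3 from -5.48 and Des from -3.06 to 1.14 and 1.41 (without week 10 replicate 3), Ccnb2 from -0.36 to 0.32 (without week 10 replicate 1) and Spag5 from -0.46 (without week 12 replicate 3) to 0.42. The cause was not tested in any of these.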
